A study of Mus musculus with 19 samples.

Results

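The growth hormone, STAT5 and insulin-like growth factor axis was examined through 10 genes chosen by their roles, with earlier results of these data known. They were the receptor *Ghr*, the transducer *Stat5b*, the feedback inhibitors *Socs2* and *Cish*, the repressor *Bcl6* and the hormone *Igf1*. The remaining ones were the serum carrier of this hormone, *Igfals*, and the binding proteins *Igfbp1*, *Igfbp2* and *Igfbp3*. All 10 were among the 31053 genes of the count table and all 10 had enough counts to be tested in every comparison. Growth hormone released by the pituitary binds its receptor on hepatocytes, the receptor-bound kinase JAK2 phosphorylates STAT5B, and STAT5B enters the nucleus and switches on *Igf1*, *Igfals*, *Socs2* and *Cish*. SOCS2 and CISH damp the receptor signal, and BCL6 is a repressor that recognises DNA much like that of STAT5 and counts among the genes that STAT5 represses in the liver. Liver-derived IGF1 circulates in a complex with IGFBP3 and the acid-labile subunit encoded by *Igfals*, while *Igfbp1* is raised by fasting and stress and lowered by insulin, and the release of growth hormone in pulses sets the male pattern of liver gene expression.

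RNA was from livers of male C57BL/6 mice, 6 to 8 weeks old when entered in the study according to the labels. Mice received PBS (vehicle, n = 5), thioacetamide (TAA, a hepatotoxin that causes fibrosis) with the vector AAV8 TBG eGFP (TAA-GFP, n = 7), or TAA with AAV8 TBG miR34b/c, a combination of vectors for miR-34b and miR-34c (TAA-miR, n = 7). TAA was given for 12 weeks, the vectors were injected after 10 weeks of TAA, and livers were taken 4 weeks after injection. The TBG promoter drives the vectors in hepatocytes, so that the groups model hepatocyte delivery, and neither TAA without a vector nor a vector without TAA is among the libraries analysed here, so that TAA and vector cannot be told apart against vehicle.

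Libraries cover the 3′ ends of polyadenylated transcripts, and their total counts were 2214073 to 4145454 with vehicle, 2463842 to 4383805 with TAA-GFP and 2717503 to 5208405 with TAA-miR. Levels are given in CPM, counts per 1000000 of the TMM-normalized library size. The summed level of 10 hepatocyte markers was 63989 to 80585 CPM with vehicle, 60844 to 69134 with TAA-GFP and 48235 to 83656 with TAA-miR. With vehicle *Alb* alone made up 41604 ± 8609 CPM (SD, n = 5) of this sum. In bulk liver RNA, fewer cells of a type and less RNA per cell cannot be told apart. Libraries of a group were closer in 6 pairs (vehicle 1 with 4 and 3 with 5, TAA-GFP 1 with 2, TAA-miR 1 with 2, 3 with 4 and 5 with 7) than in the remaining 46, with a coefficient of variation above that of counting of 0.0784 to 0.153 against 0.207 to 0.464. Calls are therefore also given with each close pair summed into 1 sample, giving 3 samples for vehicle, 6 for TAA-GFP and 4 for TAA-miR. In 3 of the 14 TAA libraries, TAA-GFP 7 and TAA-miR 5 and 7, the clock output gene *Dbp* was at the level of vehicle, and results are also given without these 3.

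Promoters hold the letters that STAT5 recognises, TTCNNNGAA, which read the same on both strands and overlap the letters recognised by BCL6. RefSeq promoters on GRCm38.p6, each 250 bases before to 50 after a start site, were found for 9 of the 10 genes, all but *Socs2*, with 15 start sites in all, of which 5, in *Cish*, *Bcl6* and *Igfals*, held the motif. Over all 32851 promoters of this length, 8.3% held it at least once, 0.457% at least 2 times and 0.0335% at least 3 times. The *Cish* promoter held 2 matches 2 bases apart, the first starting at the start site, in a stretch that the annotation places in an exon within the 5′ untranslated region. An internal promoter of *Bcl6* held 3 matches within an intron of the longer transcript, and its upstream promoter held 1 outside the gene. Both *Igfals* matches lay in introns of its longest annotated transcript. These stretches are printed because *Cish* and *Bcl6* varied widely between libraries and, for the most part, in opposite directions. Each has 30 bases on the strand of the gene, with the motif in capitals.
Cish, chr9:107296655-107296684, plus strand: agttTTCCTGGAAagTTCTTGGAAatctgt
Bcl6 internal, chr16:23981432-23981461, minus strand, 168 bases before the start: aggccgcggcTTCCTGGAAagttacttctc
Bcl6 internal, chr16:23981386-23981415, minus strand, 122 bases before the start: ggcaggagtgTTCTGTGAAatccttagagc
Bcl6 internal, chr16:23981352-23981381, minus strand, 88 bases before the start: atcgactacgTTCCGGGAAtgagagggctg
Bcl6 upstream, chr16:23988951-23988980, minus strand, 118 bases before the start: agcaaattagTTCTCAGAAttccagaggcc
Igfals, chr17:24877598-24877627, plus strand, 236 bases before the start: gatctataatTTCTCAGAAaagaggctgag
Igfals, chr17:24878163-24878192, plus strand, 58 bases before the start: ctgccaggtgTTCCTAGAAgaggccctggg
The first match of *Cish* and the farthest match of the internal *Bcl6* promoter spell the same 9 letters, TTCCTGGAA, and so do the upstream *Bcl6* match and the more distant *Igfals* match, TTCTCAGAA. A match is a run of letters and not a measured binding site, and no binding was measured here. No match was found in the windows of *Ghr*, *Stat5b*, *Igf1*, *Igfbp1*, *Igfbp2* and *Igfbp3*, which says only that the letters are absent from these windows.

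Between TAA-GFP and vehicle, *Igfbp1* rose and *Igfbp2* fell, and the other 8 genes did not pass the test, where 12.7% of all 9522 genes tested were called (edgeR adjusted p under 0.05, 7.54% higher and 5.19% lower). Between TAA-miR and TAA-GFP, *Igfbp2* was the single member called, where 3.36% of 9252 genes were called (1.95% higher, 1.42% lower). Between TAA-miR and vehicle, *Igfbp1* rose and *Igfbp2* and *Ghr* fell, where 21.9% of 9290 genes were called (12.2% higher, 9.75% lower). The comparisons share libraries and are not independent of each other. With close pairs summed, *Igfbp2* was the single member called in both comparisons with vehicle, and edgeR called none between the TAA groups, where 3 had an unadjusted p under 0.05. In these fits 2.26% of all genes were called between TAA-GFP and vehicle, 3.12% between TAA-miR and vehicle and 0.832% between the TAA groups. Without the 3 TAA libraries with *Dbp* at the vehicle level, the members called were the same as with all libraries in each comparison. These fits called 18.6% of all genes between TAA-GFP and vehicle, 3.24% between the TAA groups and 14.8% between TAA-miR and vehicle. The 3 libraries had the lowest *Igfbp1* of all TAA libraries, so that no support for its calls is read from these fits. The median log2 fold change of the 10 genes was -0.07 between TAA-GFP and vehicle, -0.50 between the TAA groups and -0.53 between TAA-miR and vehicle, against -0.01, -0.01 and 0.02 over all genes tested, and 6, 9 and 8 of the 10 fold changes were negative, most of them not called.

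**Figure D1:**
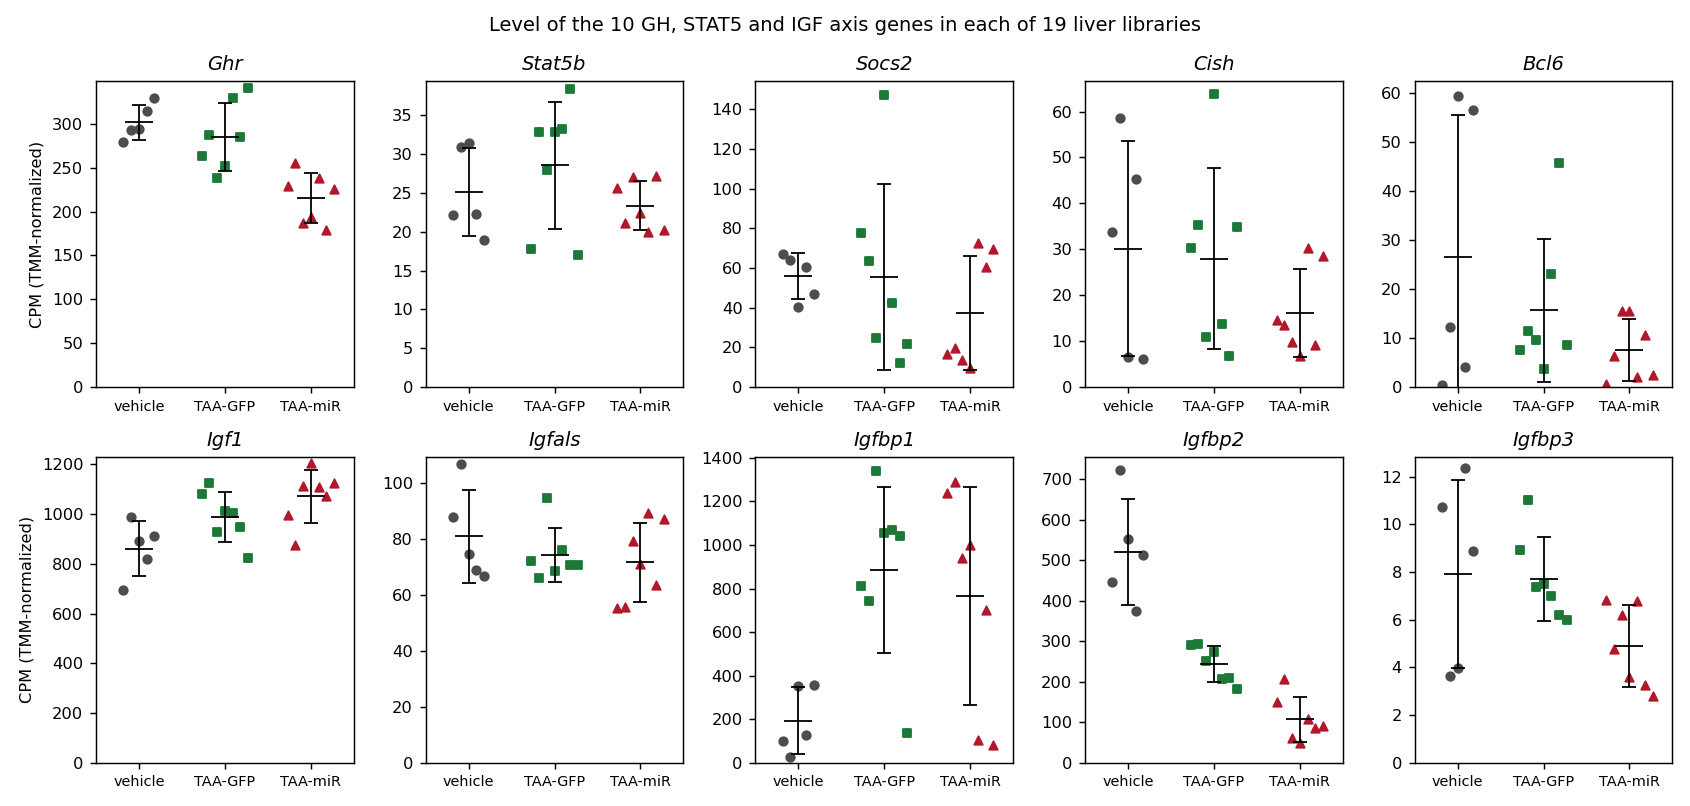
Level of each of the 10 genes (vertical axis from 0, CPM of the TMM-normalized library size) in every library of the vehicle (grey circles), TAA-GFP (green squares) and TAA-miR (red triangles) groups, with the mean (long bar) and SD (whiskers). *Igfbp2* steps down from vehicle to TAA-GFP to TAA-miR, with no overlap between vehicle and either TAA group, while *Socs2*, *Cish*, *Bcl6* and *Igfbp1* scatter widely within a group.

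**Figure D2:**
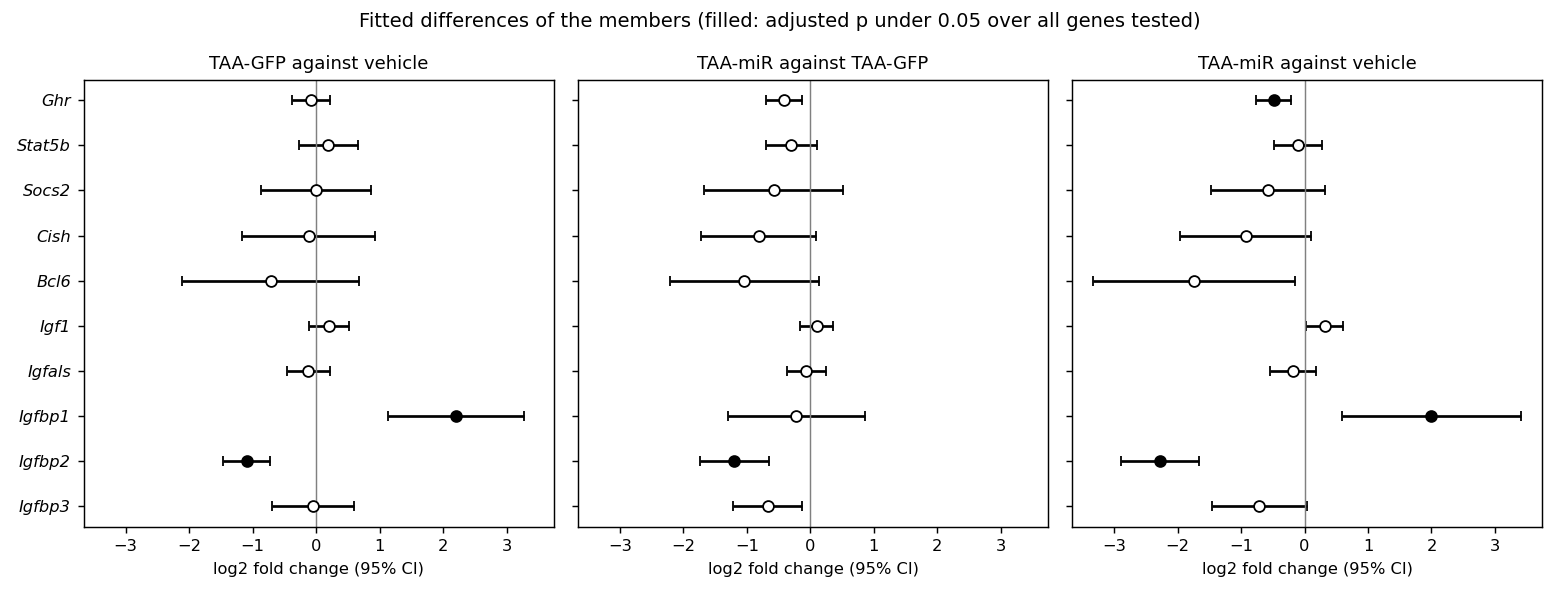
Log2 fold change of each gene in the 3 comparisons (horizontal axis), fitted by edgeR, with its 95% confidence interval, filled where the adjusted p over all genes tested was under 0.05. *Igfbp2* is filled in all 3 panels, *Igfbp1* in both comparisons with vehicle and *Ghr* only in the comparison of TAA-miR with vehicle.

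The receptor gene *Ghr* (ENSMUSG00000055737, chromosome 15 from 3317760 to 3583492 of GRCm38, minus strand) was lower in the TAA-miR group. It had 279, 293, 294, 314 and 329 CPM in vehicle 1 to 5, 238 to 341 CPM (median 284) with TAA-GFP and 179 to 255 CPM (median 226) with TAA-miR. All 7 TAA-miR libraries were below all 5 vehicle libraries, whereas the TAA-GFP libraries spanned the vehicle range. Against vehicle the log2 fold change with TAA-miR was -0.48 (SE 0.13, edgeR adjusted p = 0.0165), which is 1.40-fold lower. With close pairs summed it was -0.51 and no longer called (adjusted p = 0.149). Against TAA-GFP the log2 fold change was -0.42 (SE 0.13, adjusted p = 0.0994) and 5 of 7 TAA-miR libraries were below all TAA-GFP libraries. This difference was called without TMM scaling (-0.61, adjusted p = 0.0110), a setting that lowers the median of all genes in this comparison by 0.19, and by DESeq2 (-0.41, adjusted p = 0.0294). Between TAA-GFP and vehicle it was -0.08 (95% confidence interval -0.38 to 0.22, adjusted p = 0.748).

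*Stat5b* (ENSMUSG00000020919, chromosome 11 from 100780731 to 100850724), the transducer, was not called in any comparison. It had 22.1, 31.0, 31.5, 22.3 and 18.99 CPM in vehicle 1 to 5, 17.1 to 38.4 CPM (median 32.8) with TAA-GFP and 19.998 to 27.2 CPM (median 22.4) with TAA-miR, and the 3 groups overlapped. Its log2 fold change was 0.19 between TAA-GFP and vehicle (95% confidence interval -0.27 to 0.66), -0.30 between the TAA groups (-0.70 to 0.10) and -0.10 between TAA-miR and vehicle (-0.48 to 0.28).

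*Socs2* (ENSMUSG00000020027, chromosome 10 from 95385362 to 95417180), a STAT5 target that restrains the receptor, had a wider spread with TAA-GFP than with vehicle. It had 67.0, 64.2, 40.3, 60.8 and 46.9 CPM in vehicle 1 to 5. In TAA-GFP 1 to 7 it had 77.5, 63.4, 24.8, 147, 42.2, 12.0 and 21.8 CPM, and in TAA-miR 1 to 7 it had 16.7, 19.5, 13.5, 9.61, 72.5, 60.6 and 69.4 CPM. The TAA-miR libraries thus lay on both sides of a gap, with 1 to 4 below the vehicle range and 5 to 7 within or just above it. The group means were 55.9 ± 11.6 (SD, n = 5), 55.6 ± 46.8 (SD, n = 7) and 37.4 ± 28.5 (SD, n = 7) CPM. Neither the log2 fold change of -0.57 with TAA-miR against vehicle (SE 0.43, edgeR adjusted p = 0.345) nor that of 0.00 with TAA-GFP (SE 0.41, adjusted p = 0.997) was called. The near equality of the vehicle and TAA-GFP means rested on TAA-GFP 4, without which the log2 fold change was -0.46 (adjusted p = 0.407), and the medians were 60.8 and 42.2 CPM. Without the 3 TAA libraries with *Dbp* at the vehicle level, the log2 fold change with TAA-miR against vehicle was -1.18 and not called, where TAA-miR 5 and 7, which this leaves out, had the highest *Socs2* of their group.

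*Cish* (ENSMUSG00000032578, chromosome 9 from 107296026 to 107302784), the other STAT5-induced inhibitor, ranged widely already with vehicle. It had 33.8, 58.6, 6.65, 45.3 and 6.06 CPM in vehicle 1 to 5. In TAA-GFP 1 to 7 it had 30.4, 35.2, 10.9, 63.8, 13.8, 6.83 and 34.8 CPM, and in TAA-miR 1 to 7 it had 14.7, 13.5, 9.87, 6.80, 30.4, 9.12 and 28.6 CPM. The 3 groups overlapped, and the lowest library of each group had between 6.06 and 6.83 CPM. The log2 fold change was -0.12 between TAA-GFP and vehicle (SE 0.50, edgeR adjusted p = 0.903), -0.81 between the TAA groups (SE 0.43, adjusted p = 0.392) and -0.93 between TAA-miR and vehicle (SE 0.49, adjusted p = 0.178). Without the 3 TAA libraries with *Dbp* at the vehicle level the last was -1.49 and not called, where TAA-miR 5 and 7, which this leaves out, had the highest *Cish* of their group. Leaving out 1 library moved the difference between TAA-miR and vehicle from -1.18 (without vehicle 5) to -0.55 (without vehicle 2), and no such fit called it.

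*Bcl6* (ENSMUSG00000022508, chromosome 16 from 23965052 to 23988852) varied more with vehicle than nearly any other gene. It had 0.345, 12.2, 59.4, 4.12 and 56.6 CPM in vehicle 1 to 5, from 1 to 140 counts. In TAA-GFP 1 to 7 it had 7.59, 11.6, 9.70, 3.75, 23.2, 45.8 and 8.53 CPM, and in TAA-miR 1 to 7 it had 0.683, 6.36, 15.5, 15.6, 2.14, 10.7 and 2.44 CPM. Vehicle 3 and 5, which are a close pair, stood above every other library, and TAA-GFP 6 came next. The SD of log2 CPM within vehicle was 2.52, and 0.0101% of 9928 genes had a larger one, where the median gene had 0.37. The log2 fold change between TAA-miR and vehicle was -1.73 (SE 0.75, 95% confidence interval -3.32 to -0.14, edgeR adjusted p = 0.106), and it was called in 1 of 12 fits that left out a library, the one without vehicle 1 (adjusted p = 0.0481). Between TAA-GFP and vehicle it was -0.71 (SE 0.67, adjusted p = 0.497), from -1.24 without TAA-GFP 6 to -0.15 without vehicle 3, and between the TAA groups -1.04 (SE 0.56, adjusted p = 0.400), or -0.51 without TAA-GFP 6.

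*Cish* and *Bcl6* tended to lie on opposite sides within each group. With vehicle, the libraries with the lowest *Cish*, 3 and 5, were those with the highest *Bcl6*. With TAA-GFP, library 6 had the lowest *Cish* and the highest *Bcl6*, and library 4 had the highest *Cish* and *Socs2* and the lowest *Bcl6*. With TAA-miR, the 3 libraries with the lowest *Cish*, 3, 4 and 6, were the 3 with the highest *Bcl6*. The order was not strict, since vehicle 1 had the lowest *Bcl6* but only the third highest *Cish*, and TAA-miR 1 had the lowest *Bcl6* with an intermediate *Cish*. *Socs2* followed *Cish* in part, and TAA-miR 6 had high *Socs2* with low *Cish*. Libraries of a close pair share these patterns and are not separate instances of them.

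**Figure D3:**
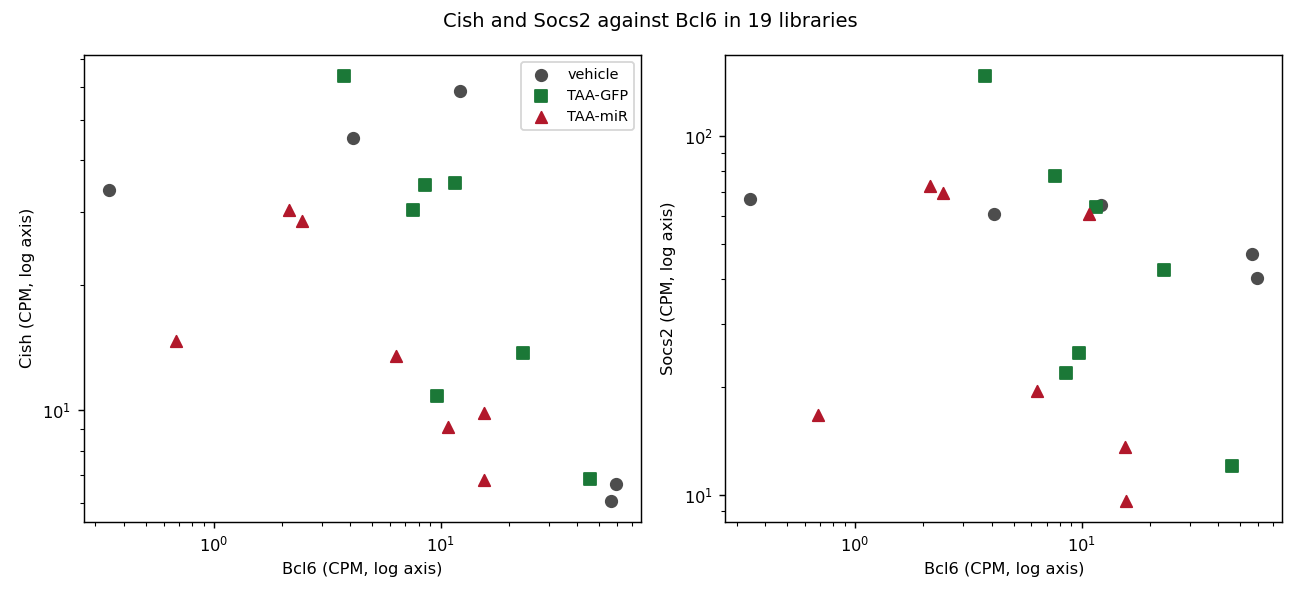
Level of *Cish* (left, vertical axis) and *Socs2* (right, vertical axis) against that of *Bcl6* (horizontal axes), all in CPM on log axes, 1 point per library of vehicle (grey circles), TAA-GFP (green squares) and TAA-miR (red triangles). The libraries with the highest *Bcl6* (59.4, 56.6 and 45.8 CPM) have *Cish* of 6.65, 6.06 and 6.83 CPM.

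*Igf1* (ENSMUSG00000020053, chromosome 10 from 87858265 to 87937042), the main hormone made by the liver under growth hormone, was not lower in either TAA group. It had 696, 988, 892, 821 and 911 CPM in vehicle 1 to 5, 824 to 1124 CPM (median 1003) with TAA-GFP and 875 to 1205 CPM (median 1109) with TAA-miR. The groups were ordered vehicle, TAA-GFP, TAA-miR, neighbours in this order overlapped, and 6 of 7 TAA-miR libraries were above all vehicle libraries. The log2 fold change was 0.20 between TAA-GFP and vehicle (95% confidence interval -0.12 to 0.52, edgeR adjusted p = 0.389), 0.10 between the TAA groups (-0.15 to 0.36, adjusted p = 0.773) and 0.32 between TAA-miR and vehicle (0.03 to 0.60, adjusted p = 0.103). DESeq2 called the last (0.31, adjusted p = 0.0491). Its SD of log2 CPM was 0.19, 0.15 and 0.15 in the 3 groups, and 87.7%, 98.0% and 96.9% of genes had a larger one.

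*Igfals* (ENSMUSG00000046070, chromosome 17 from 24865997 to 24882010), which encodes the acid-labile subunit, was not called either. It had 87.7, 107, 74.5, 69.0 and 66.7 CPM in vehicle 1 to 5, 66.1 to 94.6 CPM (median 70.8) with TAA-GFP and 55.3 to 89.3 CPM (median 70.8) with TAA-miR. The groups overlapped, and the log2 fold change was -0.12 (95% confidence interval -0.46 to 0.21) between TAA-GFP and vehicle, -0.06 (-0.37 to 0.24) between the TAA groups and -0.18 (-0.54 to 0.19) between TAA-miR and vehicle. For *Igfals*, 69.2%, 96.5% and 77.5% of genes had a larger SD of log2 CPM in the 3 groups. For *Ghr*, 98.6%, 94.0% and 92.1% of genes had a larger one, against 0.181%, 1.31% and 11.5% for *Cish*. These shares are over genes of all levels, and abundant genes such as *Igf1* and *Ghr* have a smaller SD from counting alone.

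*Igfbp1* (ENSMUSG00000020429, chromosome 11 from 7197782 to 7202546), which encodes the binding protein under control of insulin and stress, was the member with the largest increase. It had 101, 27.0, 352, 125 and 359 CPM in vehicle 1 to 5. In TAA-GFP 1 to 7 it had 814, 741, 1339.5, 1054, 1069, 1043 and 139 CPM, and in TAA-miR 1 to 7 it had 1239, 1290.5, 942, 998, 106, 699 and 80.9 CPM. In the TAA groups, 11 of 14 libraries lay above the vehicle range and 3, TAA-GFP 7 and TAA-miR 5 and 7, lay within it. The log2 fold change was 2.204 between TAA-GFP and vehicle (SE 0.52, edgeR adjusted p = 0.00964), a 4.61-fold increase, and 1.999 between TAA-miR and vehicle (SE 0.67, adjusted p = 0.0419), a 4.00-fold increase. The TAA groups did not differ detectably (-0.22, 95% confidence interval -1.30 to 0.85). The call with TAA-miR was lost in 6 of 12 fits that left out a library (without vehicle 1, 2 or 4 or TAA-miR 3, 4 or 6, adjusted p up to 0.103), and an exact permutation of its log2 CPM over these libraries (two-sided) gave an unadjusted p of 0.0808. Both calls were lost with close pairs summed, where the log2 fold changes were 2.44 (adjusted p = 0.0679) and 2.19 (adjusted p = 0.136).

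The level of *Igfbp1* moved with those of the clock genes *Dbp*, chosen after its values were seen, and *Arntl*, one of the genes nearest to *Igfbp1* in pattern, so that neither is independent evidence of a link. *Dbp* had 63.9 to 107 CPM with vehicle, 87.5, 83.9 and 81.6 CPM in TAA-GFP 7 and TAA-miR 5 and 7, and 0.795 to 35.9 CPM in the other 11 TAA libraries. *Arntl*, which encodes the clock activator BMAL1, had 0 to 1.21 CPM with vehicle, 0.316, 0.357 and 1.05 CPM in the same 3 TAA libraries, and 2.41 to 8.75 CPM in the others. The 3 TAA libraries in which *Igfbp1* was within the vehicle range were thus those in which *Dbp* and *Arntl* were near vehicle as well, and TAA-miR 5 and 7 are a close pair. Without these 3, the log2 fold change of *Igfbp1* was 2.40 between TAA-GFP and vehicle, 2.44 between TAA-miR and vehicle and 0.0241 between the TAA groups. Since these 3 also had the lowest *Igfbp1* of all TAA libraries, the larger differences from vehicle follow from leaving them out, and no test is read from them. The time of day at collection is not given in the sources used here, and TAA and a difference in clock phase cannot be told apart for *Igfbp1* in these libraries.

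**Figure D4:**
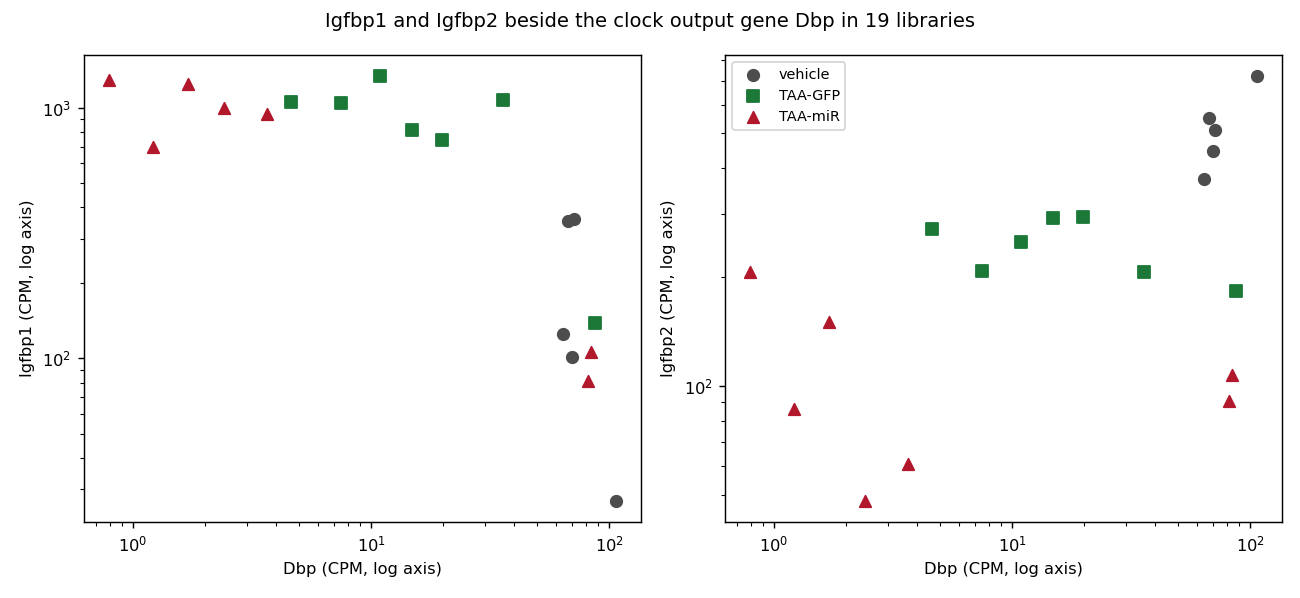
Level of *Igfbp1* (left, vertical axis) and *Igfbp2* (right, vertical axis) against that of the clock output gene *Dbp* (horizontal axes), all in CPM on log axes, 1 point per library of vehicle (grey circles), TAA-GFP (green squares) and TAA-miR (red triangles). The 3 TAA libraries at 81.6 to 87.5 CPM of *Dbp* sit among the vehicle libraries for *Igfbp1* (80.9 to 139 CPM) and below all of them for *Igfbp2* (90.7 to 183 CPM).

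The genes whose centred log2 CPM over the 19 libraries was nearest to that of *Igfbp1* were *Btg2*, *Arntl* and *Chka*, with root mean square differences of 0.91, 0.93 and 0.93, where *Igfbp1* itself had an SD of 1.72. *Btg2*, an early response gene, had 9.55 to 15.7 CPM with vehicle, 19.9, 17.5 and 17.8 CPM in TAA-GFP 7 and TAA-miR 5 and 7, and 24.9 to 89.2 CPM in the other TAA libraries. *Chka*, which encodes choline kinase, had 3.99 to 7.68 CPM with vehicle, 9.48, 9.28 and 4.53 CPM in these 3, and 19.5 to 56.0 CPM in the others. For *Igf1* the nearest genes were *Surf4*, *Eif6* and *Camk2n1* (0.13, 0.14 and 0.15, where *Igf1* had an SD of 0.20), and for *Socs2* they were *Syt1*, *Zdhhc14* and *Ank3* (0.61, 0.66 and 0.72, where *Socs2* had an SD of 1.07). *Syt1* had 3.76 to 7.16 CPM in TAA-miR 1 to 4 and 18.0 to 23.2 CPM in 5 to 7, the same split as *Socs2*.

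*Igfbp2* (ENSMUSG00000039323, chromosome 1 from 72824503 to 72852474), which encodes a binding protein made by hepatocytes, fell in both TAA groups and was lower with TAA-miR than with TAA-GFP. It had 446, 722, 552, 374 and 512 CPM in vehicle 1 to 5. In TAA-GFP 1 to 7 it had 291, 293, 251, 273, 207, 208 and 183 CPM, and in TAA-miR 1 to 7 it had 151, 207, 60.7, 48.0, 107, 86.1 and 90.7 CPM. Neither TAA group overlapped vehicle, and 6 of 7 TAA-miR libraries were below all TAA-GFP libraries, TAA-miR 2 being the exception. The log2 fold change was -1.09 between TAA-GFP and vehicle (SE 0.18, edgeR adjusted p = 0.000712), which is 2.13-fold lower, and -1.19 between the TAA groups (SE 0.26, adjusted p = 0.0126), which is 2.29-fold lower. Between TAA-miR and vehicle it was -2.28 (SE 0.29, adjusted p = 0.000146), which is 4.85-fold lower. All 3 were called in every fit that left out 1 library. With close pairs summed the difference between the TAA groups was -1.18 and not called (adjusted p = 0.0658), while both differences from vehicle stayed called. In the 3 TAA libraries with *Dbp* at the vehicle level, *Igfbp2* had 183, 107 and 90.7 CPM, below the lowest vehicle library at 374 CPM, unlike *Igfbp1*. The TAA-miR libraries with the highest *Igfbp2*, 1 and 2, were a close pair. The share of counts from mitochondrially encoded genes was 3.73% to 5.65% with vehicle and 4.83% to 9.41% with TAA-GFP, and it was 3.71% and 3.73% in TAA-miR 1 and 2 against 8.21% to 10.8% in TAA-miR 3 to 7. High *Igfbp2* thus went with a low share in TAA-miR 1 and 2, whereas in TAA-GFP 1 to 4 the share was higher than in 5 to 7 and *Igfbp2* was higher as well. The part of RNA composition in *Igfbp2* was not tested.

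*Igfbp3* (ENSMUSG00000020427, chromosome 11 from 7206086 to 7213923), a neighbour of *Igfbp1* and the main carrier of IGF1 in serum, is made in the liver mostly by non-parenchymal cells and had few counts. It had 10.7, 3.62, 3.99, 12.4 and 8.89 CPM in vehicle 1 to 5 (9 to 51 counts), 6.00 to 11.0 CPM (median 7.37) with TAA-GFP and 2.79 to 6.83 CPM (median 4.77) with TAA-miR. The TAA-miR libraries were the lowest group, and 4 of 7 were below all TAA-GFP libraries. The log2 fold change between the TAA groups was -0.67 (SE 0.26, edgeR adjusted p = 0.189) and between TAA-miR and vehicle -0.71 (SE 0.36, adjusted p = 0.155), neither past the threshold, and between TAA-GFP and vehicle it was -0.05 (SE 0.31, adjusted p = 0.932).

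Of 20 other genes of growth hormone receptor and JAK-STAT signalling, 2 of 17 tested rose between TAA-GFP and vehicle and none fell, where 7.54% of all genes rose. Between the TAA groups edgeR called 0 of 16, where 4 had an unadjusted p under 0.05 and DESeq2 called 1, and between TAA-miR and vehicle 6 of 16 rose and none fell (median log2 fold change 0.55), where 12.2% of all genes rose. Those that rose with TAA-GFP were *Socs3*, an inhibitor induced by STAT3 (1.11, SE 0.27, edgeR adjusted p = 0.0129), and the hepatocyte transcription factor *Onecut1* (1.49, SE 0.46, adjusted p = 0.0367). *Socs3* had 18.3 ± 4.72 CPM (SD, n = 5) with vehicle, 39.5 ± 13.1 (SD, n = 7) with TAA-GFP and 54.0 ± 28.4 (SD, n = 7) with TAA-miR. With TAA-miR, *Stat3* rose by 1.26 (SE 0.17, adjusted p = 0.000164), the phosphatase gene *Ptpn1* by 1.44 (SE 0.25, adjusted p = 0.00134) and the adaptor gene *Grb2* by 0.80 (SE 0.14, adjusted p = 0.00153), all with 7 of 7 libraries above all vehicle libraries. *Stat3* had 170 ± 24.8 CPM (SD, n = 5) with vehicle, 294 ± 138 (SD, n = 7) with TAA-GFP and 406 ± 79.5 (SD, n = 7) with TAA-miR. *Jak2*, the kinase bound to the receptor, had 10.4, 10.1 and 6.36 CPM as group means and a log2 fold change of -0.73 between TAA-miR and vehicle (adjusted p = 0.115). *Stat5a* had 3.11, 4.14 and 4.29 CPM and was not called (adjusted p of 0.382 to 0.979). With close pairs summed, edgeR called 0 of 18 genes of this list between TAA-GFP and vehicle, where 2 had an unadjusted p under 0.05, and 2 of 18 between TAA-miR and vehicle, *Stat3* and *Ptpn1*, where 2.26% and 3.12% of all genes were called.

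Of 14 genes of insulin and IGF receptor signalling, all were tested, and 2, 1 and 4 were called in the 3 comparisons, where 12.7%, 3.36% and 21.9% of all genes were. *Irs2*, the insulin receptor substrate of the fasted liver, had 10.8 ± 7.16 CPM (SD, n = 5) with vehicle, 50.9 ± 35.4 (SD, n = 7) with TAA-GFP and 46.6 ± 35.9 (SD, n = 7) with TAA-miR. It rose by 2.27 with TAA-GFP (SE 0.47, edgeR adjusted p = 0.00442) and by 2.16 with TAA-miR (SE 0.49, adjusted p = 0.00627) against vehicle. In TAA-GFP 7 it had 13.3 CPM, within the vehicle range of 2.76 to 18.6 CPM, whereas in TAA-miR 5 and 7 it had 25.7 and 32.4 CPM. *Foxo3*, a transcription factor held back by insulin, rose by 0.82 with TAA-GFP (SE 0.26, adjusted p = 0.0388), and these 2 were the genes called in that comparison. Between the TAA groups *Irs1* fell by 1.02 (SE 0.20, adjusted p = 0.00669) and was the single gene called. Between TAA-miR and vehicle 3 rose, among them *Akt2* (0.84, SE 0.17, adjusted p = 0.00359), and *Pdpk1* fell by 0.48 (SE 0.16, adjusted p = 0.0375). The receptors were not called: *Insr* had 41.1, 45.3 and 41.9 CPM as group means (adjusted p of 0.736 to 0.943), and *Igf1r*, which hepatocytes express little, had 4.36, 7.28 and 7.17 CPM (adjusted p of 0.274 to 0.985). Of these calls, those of *Irs2* against vehicle were the ones kept when close pairs were summed, and that of *Irs1* was lost (-0.94, adjusted p = 0.0582).

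Of 14 other genes of the IGF system, among them *Igf2* itself, binding proteins, proteases that cut them and the *Igf2bp* genes, whose products bind mRNA, 4, 3 and 3 had enough counts to be tested in the 3 comparisons. *Igfbp7* rose between TAA-GFP and vehicle by 0.64 (SE 0.18, edgeR adjusted p = 0.0224), from 49.1 ± 11.2 CPM (SD, n = 5) to 76.2 ± 10.4 (SD, n = 7), and had 70.1 ± 13.7 CPM (SD, n = 7) with TAA-miR. *Igfbp4* had 1066 ± 179 CPM (SD, n = 5) with vehicle, 1403 ± 232 (SD, n = 7) with TAA-GFP and 1488 ± 207 (SD, n = 7) with TAA-miR. It rose by 0.49 with TAA-miR against vehicle (SE 0.15, adjusted p = 0.0310) and had a log2 fold change of 0.40 with TAA-GFP (adjusted p = 0.131). Summing close pairs ended both calls, with 0.73 for *Igfbp7* (adjusted p = 0.0887) and 0.51 for *Igfbp4* (adjusted p = 0.187), and *Htra1*, which encodes a serine protease and had too few counts to be tested there with all libraries, was then called lower between the TAA groups.

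Male-biased liver genes, whose expression depends on the pulses of growth hormone, were mostly called lower where they were called. Between TAA-GFP and vehicle 9 of 22 fell and 2 rose, between the TAA groups 3 of 21 fell and 1 rose, and between TAA-miR and vehicle 12 of 22 fell and 1 rose, where 5.19%, 1.42% and 9.75% of all genes fell. The list was drawn up with results of these libraries known and is not independent evidence of its direction. With close pairs summed, 3, 0 and 6 fell and 0, 1 and 0 rose, where 2.26%, 0.832% and 3.12% of all genes were called in either direction. Between the TAA groups *Mup20* (-1.62, adjusted p = 0.0834) and *Ugt2b1* (-1.03, adjusted p = 0.119) then lost their calls. *Susd4* and *Hsd3b5* kept their calls against vehicle, *Cyp7b1* kept its call with TAA-miR, and the *Cyp4a12* genes lost theirs. When the data were taken without the 3 TAA libraries with *Dbp* at the vehicle level, 9, 4 and 12 fell and 3, 1 and 1 rose, in fits that called 18.6%, 3.24% and 14.8% of all genes in either direction. The mean log2 CPM over the 22 genes, in which each gene weighs the same, was 8.12 to 8.30 with vehicle. It was just below this range in TAA-GFP 6 and 7 and TAA-miR 5 and 7, with 8.05, 7.93, 7.95 and 7.86, and further below it in the other TAA libraries, with 6.44 to 7.57. The sum of CPM over the list was higher in these 4 libraries (36118 to 38283 CPM) than with vehicle (29533 to 32945 CPM), but with vehicle most of it comes from *Serpina1e*, *Mup3* and *Mup20*. The steroid dehydrogenase gene *Hsd3b5* had 221, 151, 192, 238 and 199 CPM in vehicle 1 to 5, 5.48 to 89.7 CPM with TAA-GFP and 6.15 to 83.6 CPM with TAA-miR, and no TAA library reached the vehicle range. It fell by 2.27 with TAA-GFP against vehicle (SE 0.41, edgeR adjusted p = 0.00163), and its level in TAA-GFP 7 and TAA-miR 5 and 7 was 82.8, 83.6 and 80.9 CPM, among the highest of the TAA groups. *Susd4* had 33.0 ± 3.27 CPM (SD, n = 5) with vehicle, 1.16 ± 1.14 (SD, n = 7) with TAA-GFP and 4.38 ± 3.35 (SD, n = 7) with TAA-miR, and fell by 4.84 (SE 0.42, adjusted p = 3.49e-07) and 2.90 (SE 0.35, adjusted p = 0.0001) against vehicle. The oxysterol hydroxylase gene *Cyp7b1* fell by 1.40 with TAA-miR against vehicle (SE 0.21, adjusted p = 0.000385), from 449 ± 44.8 CPM (SD, n = 5) to 170 ± 55.7 (SD, n = 7). *Moxd1* had 38.8 to 158 CPM with vehicle, at most 0.325 CPM with TAA-GFP and 4.40 to 16.8 CPM with TAA-miR. Not all male-biased genes fell: *Cyp4a12a* and *Cyp4a12b* rose with TAA-GFP. The pheromone carrier gene *Mup20* had 7538 CPM in TAA-GFP 6 and 10781 CPM in TAA-GFP 7 against 2510 to 3516 CPM with vehicle, and was lower by 1.49 with TAA-miR than with TAA-GFP (SE 0.30, adjusted p = 0.00832), as was *Ugt2b1* by 1.10 (SE 0.23, adjusted p = 0.0106). Reads of *Mup*, *Cyp4a12* and *Ugt2b* genes can be split between near-identical copies, and these values are uncertain.

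Female-biased liver genes, which are raised where growth hormone is continuous, had few counts. Of 21 genes 4 were tested in each comparison, and 9, 5 and 9 were listed with no count in any library of vehicle, TAA-GFP and TAA-miR. *Abcd2* rose with TAA-GFP against vehicle (1.30, SE 0.40, edgeR adjusted p = 0.0379). *Cyp17a1* fell by 1.89 with TAA-GFP against vehicle (SE 0.48, adjusted p = 0.0146) and was higher by 3.04 with TAA-miR than with TAA-GFP (SE 0.56, adjusted p = 0.00415). *Cyp17a1* had 23.9 to 159 CPM (median 43.2) with TAA-miR and 1.32 to 23.4 CPM (median 6.63) with TAA-GFP. The summed level of the female-biased list was 267 and 257 CPM in the close pair TAA-miR 1 and 2, against 59.8 to 106 CPM in TAA-miR 3 to 7. In the TAA-miR group *Cyp17a1* and *Rtn4* reached 159 and 77.2 CPM, the highest of the list, and most of the sum came from them. When close pairs were summed, the higher level of *Cyp17a1* between the TAA groups kept its call, its fall against vehicle (-1.56, adjusted p = 0.136) and the rise of *Abcd2* lost theirs, and *Cyp2a4*, with too few counts to be tested with all libraries, was called higher with TAA-GFP against vehicle.

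**Figure D5:**
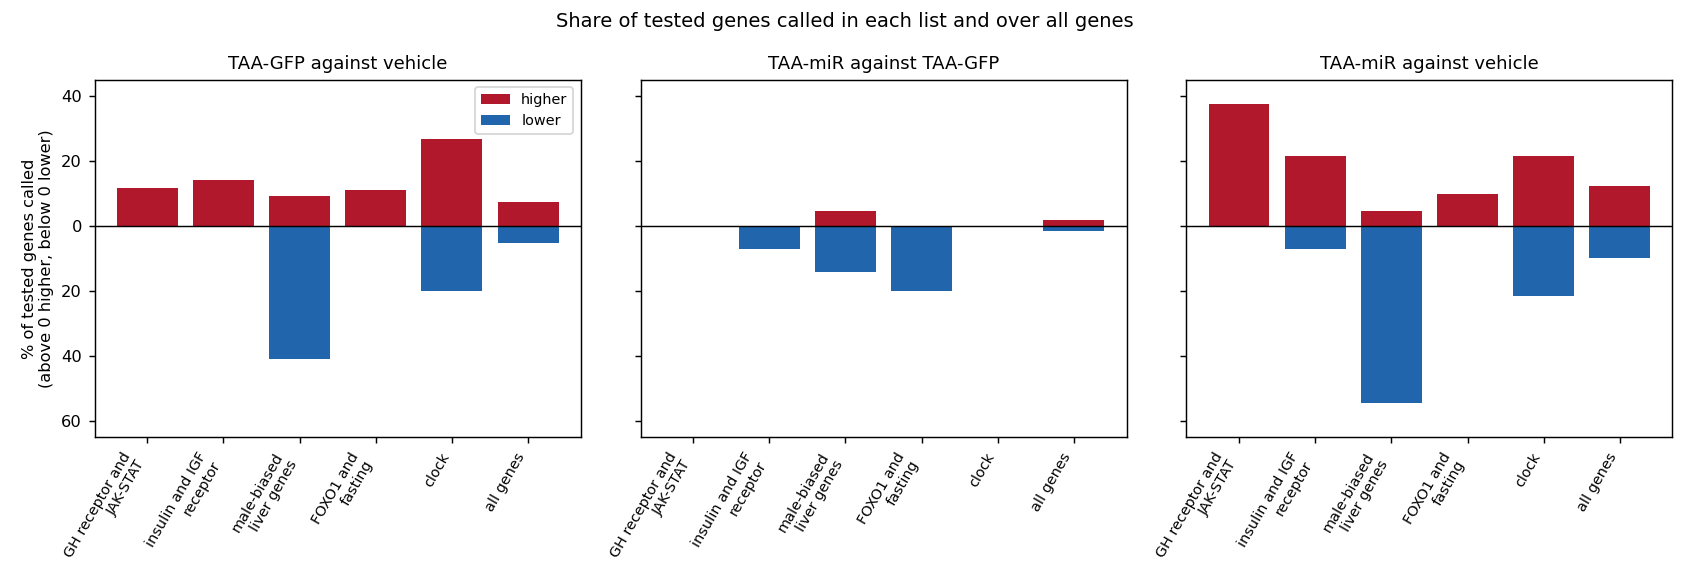
Percent of tested genes called higher (red, above 0) and lower (blue, below 0) in 5 gene lists and over all genes tested, in the 3 comparisons. The male-biased list has 9, 3 and 12 genes lower of 22, 21 and 22 tested, and the JAK-STAT list has no gene lower in any panel.

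Other gene groups were measured beside the binding proteins, and their part in the results was not tested. Of genes induced by FOXO1 or fasting, as *Igfbp1* is, 1 of 9 rose with TAA-GFP against vehicle, *Trib1* (1.07, SE 0.24, edgeR adjusted p = 0.00789), and none fell. Between the TAA groups 2 of 10 fell, *G6pc*, which encodes glucose-6-phosphatase (-1.18, SE 0.16, adjusted p = 0.000279), and *Txnip* (-1.54, SE 0.35, adjusted p = 0.0181), while *Igfbp1* did not differ detectably there. Between TAA-miR and vehicle 1 of 10 rose, *Trib1*, and none fell. Of genes of the stress response led by ATF4, which also induces *Igfbp1*, 2 of 9 rose and 1 fell with TAA-GFP against vehicle, namely *Atf5* (1.36, SE 0.26, adjusted p = 0.00277), *Atf3* (2.33, SE 0.60, adjusted p = 0.0152) and *Asns* (-2.04, SE 0.51, adjusted p = 0.0133). With TAA-miR against vehicle 2 of 8 of this list rose and none fell. There 1 of 10 rose with close pairs summed, where 3.12% of all genes were called. For the TAA groups edgeR called 0 of 7, where 2 had an unadjusted p under 0.05 and DESeq2 called 0. Of the clock list, 4 rose and 3 fell of 15 with TAA-GFP and 3 rose and 3 fell of 14 with TAA-miR against vehicle, and edgeR called 0 of 12 between the TAA groups, where 2 had an unadjusted p under 0.05 and DESeq2 called 0. *Nfil3*, a repressor that opposes DBP, rose by 1.97 and 2.37 (SE 0.35 and 0.41, adjusted p = 0.00162 and 0.00134) and *Per3* fell by 2.59 and 2.23 (SE 0.48 and 0.68, adjusted p = 0.00212 and 0.0275) in the comparisons with vehicle. In the same comparisons 12.7%, 3.36% and 21.9% of all genes were called. Of the genes named here, those that kept their calls when close pairs were summed were *G6pc*, *Atf5*, *Nfil3* and, with TAA-GFP, *Per3*. The clock list then had 2 higher and 1 lower of 15 with TAA-GFP and 1 higher of 15 with TAA-miR against vehicle. In these 2 comparisons the fits called 2.26% and 3.12% of all genes.

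Acute phase genes, which hepatocytes induce through STAT3, differed between the TAA groups. Of 24 genes, 21 were higher with TAA-miR than with TAA-GFP and none lower, 15 were higher than with vehicle and none lower, and with TAA-GFP against vehicle 6 were lower and none higher, where 1.95% and 12.2% of all genes were higher and 5.19% lower. When close pairs were summed, 10 and 6 were higher and 1 was lower, where 0.832%, 3.12% and 2.26% of all genes were called. Their summed level was 33918 to 80161 CPM with vehicle, 25771 to 63428 with TAA-GFP and 56159 to 210240 with TAA-miR. The close pair vehicle 1 and 4 had 80161 and 79005 CPM, against 33918 to 39438 CPM in the other vehicle libraries. Within the TAA-miR group the sums and *Igfbp2* showed no common order. Libraries 1 and 2 had the highest sums, 207961 and 210240 CPM, and the highest *Igfbp2*, libraries 3 and 4 had high sums, 135134 and 133582 CPM, and the lowest *Igfbp2*, and libraries 5 and 7 had sums within the vehicle range, 58422 and 56159 CPM, and *Igfbp2* of 107 and 90.7 CPM. *Serpina3n* had 291 ± 24.8 CPM (SD, n = 5) with vehicle, 248 ± 103 (SD, n = 7) with TAA-GFP and 1497 ± 522 (SD, n = 7) with TAA-miR. The summed level of 8 neutrophil markers was 16.8 to 82.2, 14.0 to 72.2 and 67.0 to 2045 CPM, with *Ly6g* at 0 in all vehicle libraries. In TAA-miR 1 to 7 it was 2045, 2038, 416, 441, 74.6, 142 and 67.0 CPM, so that libraries 1 and 2, with the highest *Igfbp2* of their group, stood apart here too. That of 14 macrophage markers was 534 to 1018, 469.6 to 766 and 663 to 909.8 CPM, that of 15 markers of hepatic stellate cells and myofibroblasts 497 to 741, 532 to 673 and 369 to 688 CPM, of which *Dcn* alone made up 368 ± 62.7 CPM (SD, n = 5) with vehicle, and that of 12 endothelial markers 438 to 482, 402 to 436 and 429 to 529 CPM. That of 7 cholangiocyte markers was 23.1 to 44.8, 60.8 to 105 and 54.3 to 125 CPM, with *Cftr* at 0 in all vehicle libraries, and that of 10 T and B cell markers 9.88 to 22.2, 5.04 to 17.4 and 7.16 to 16.1 CPM. In the macrophage list edgeR called 6, 3 and 3 genes in the 3 comparisons, where 12.7%, 3.36% and 21.9% of all genes were called. Of these genes 1, 2 and 1 were higher and 5, 1 and 2 were lower. With close pairs summed edgeR called 2, 0 and 1, where 2.26%, 0.832% and 3.12% of all genes were called. Between the TAA groups 5 then had an unadjusted p under 0.05. As group means *Gpnmb* had 0.187, 23.1 and 8.92 CPM, while *Timd4* had 10.5, 2.33 and 3.01 CPM and *Adgre1* 31.0, 15.5 and 13.4 CPM. *Cd5l* had 162, 96.2 and 177 CPM and *C1qb* 65.9, 46.6 and 90.0 CPM, both called higher between the TAA groups. Single genes of the stellate cell and myofibroblast list moved more than its sum. Of 14 tested, 4 rose and 1 fell between TAA-GFP and vehicle, where 7.54% of all genes rose and 5.19% fell. Of 13 tested, 2 fell between the TAA groups, where 1.42% of all genes fell, *Col1a1* and *Col3a1*, both of which encode fibrillar collagens. In the fits of summed close pairs 1 rose and 2 fell in these comparisons, where 2.26% and 0.832% of all genes were called in either direction. *Col1a1* had 4.87 ± 1.21 CPM (SD, n = 5) with vehicle, 26.5 ± 14.98 (SD, n = 7) with TAA-GFP and 6.99 ± 1.10 (SD, n = 7) with TAA-miR, and it rose by 2.42 with TAA-GFP against vehicle (SE 0.36, edgeR adjusted p = 0.000298) and fell by 1.92 with TAA-miR against TAA-GFP (SE 0.29, adjusted p = 0.000898).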

How the data were processed

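Liver RNA of 19 mice was sequenced by 3′-end mRNA-seq, and the authors deposited raw counts per gene for all libraries in 1 table. The labels call the libraries biological replicates. Alignment used STAR and the build mm10 according to the submitters' processing notes, in the pipeline of the sequencing provider. The annotation, the strand setting and whether molecular identifiers were used are not given in the sources used here, so that counts may include PCR duplicates and overlapping genes may share reads. Symbols and positions came from the GENCODE vM21 annotation of GRCm38 (30934 of 31053 genes matched), promoters from RefSeq.

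Counts were tested in each pair of groups with edgeR 4.0.16 in R 4.3.3 (TMM, filterByExpr at min.count 10 and min.total.count 15, glmQLFit and glmQLFTest, no covariate, two-sided, Benjamini-Hochberg over all genes tested, threshold 0.05). The standard error (SE) is the absolute log2 fold change divided by the square root of F. Log2 CPM used a prior count of 2. The test was run first on simulated counts. The median total of a library was 2991704 counts, so that genes of a few CPM rest on few counts and are imprecise.

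Besides the members, the genes named were, from each gene list and comparison, up to 3 called genes with the smallest adjusted p, *Jak2*, *Stat5a*, *Socs3*, *Igf1r*, *Insr*, *Igfbp4* and *Igfbp7*, and the 3 genes nearest in pattern to *Igf1*, *Socs2* and *Igfbp1*. *Dbp*, *Cyp4a12a*, *Cyp4a12b*, *Htra1*, *Cyp2a4*, *Rtn4*, *Alb*, *Dcn*, *Serpina1e*, *Mup3*, *Cftr*, *Ly6g*, *Gpnmb*, *Timd4* and *Adgre1* were chosen after their values were seen. Members and lists were chosen with earlier results of these data known, and the acute phase, clock, male-biased and female-biased lists go back to an analysis that had seen these data. Alternatives were no filter, DESeq2 size factors, library size only, DESeq2 1.42.0, a fit of all 3 groups, a replicate block, close pairs summed (coefficient of variation under 0.2) and each library left out. Leaving out the libraries with *Dbp* at or above the lowest vehicle library, and list counts under alternatives, were added after seeing the data.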

Additional observations from a re-analysis of the deposited data

Results flagged for a closer look

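Of 30 groups of libraries examined, the 10 genes in 3 groups each, 2 had a library far from the others, where chance gives 1.5. TAA-GFP 7 had the lowest *Igfbp1* of its group, with a log2 CPM of 7.13 where the next library had 9.53. It was also the TAA-GFP library with the highest *Dbp*, and the part of this in its *Igfbp1* level was not tested. TAA-GFP 3 had the highest *Igfals* of its group, with a log2 CPM of 6.57 where the next library had 6.26.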

How the results depend on the processing

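Over the 10 genes, 3 comparisons and 8 alternatives other than leaving out single libraries, 222 log2 fold changes kept their direction and their side of the threshold, 6 lost a call, 4 gained one and 8 changed sign. The calls lost and gained are given with the genes, except those under the replicate block. With close pairs summed, 227 genes were called between TAA-GFP and vehicle (218 of them among the 1212), 87 between the TAA groups (78 of the 311) and 331 between TAA-miR and vehicle (319 of the 2037), and 1, 0 and 1 members, with fewer samples in each fit. Scaling by library size only called 624 genes and 2 members (*Ghr* added) between the TAA groups and moved the share of called genes that were higher from 57.9% to 19.1%, and in the comparison of TAA-miR with vehicle from 55.5% to 31.1%. DESeq2 called 542 genes and 2 members between the TAA groups. Without the libraries with *Dbp* at the vehicle level, 1352 genes were called between TAA-miR and vehicle. The sign changed for *Socs2* between TAA-GFP and vehicle with all 3 groups in one fit (-0.00490) and with close pairs summed (-0.0943), for *Igfbp3* there by library size only (0.0271) and without the libraries with *Dbp* at the vehicle level (4.71e-05), for *Igf1* between the TAA groups by library size only (-0.0865) and for *Igfbp1* there without those libraries (0.0241). None of these was called, and the cause of these shifts was not tested. Leaving out each library in turn gave 689 to 1859, 209 to 344 and 1267 to 2695 genes in the 3 comparisons and 2 to 2, 1 to 1 and 2 to 3 members. Between TAA-GFP and vehicle, single libraries that moved the count by over 1.5 times were vehicle 1 (728 without it), vehicle 4 (689), TAA-GFP 3 (806) and TAA-GFP 6 (1859), and between TAA-miR and vehicle they were vehicle 1 (1328) and vehicle 4 (1267). Between TAA-GFP and vehicle it moved *Socs2* from -0.46 to 0.18, *Cish* from -0.46 to 0.25, *Bcl6* from -1.24 to -0.15, *Igfals* from -0.19 to 0.0037 and *Igfbp3* from -0.23 to 0.19, and between the TAA groups *Socs2* from -0.82 to -0.12, *Cish* from -1.04 to -0.47 and *Bcl6* from -1.31 to -0.51.

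The replicate numbers did not pair the libraries, since the correlation of deviations within a number was -0.284 to 0.277 and 2 of 5, 1 of 7 and 0 of 5 libraries correlated best with their own number. With a replicate block 3088, 142 and 922 genes were called in the 3 comparisons. *Cish* (0.19) and *Igfbp3* (0.15) then changed sign between TAA-GFP and vehicle, and between TAA-miR and vehicle *Ghr* (-0.45, adjusted p = 0.101) and *Igfbp1* (2.54, adjusted p = 0.0565) lost their call and *Socs2* (-1.44, adjusted p = 0.0292) gained one.

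Depth limits genes of few counts, among them *Igfbp3*, *Bcl6*, *Jak2*, *Stat5a* and *Igf1r* and, in the groups where they are low, *Arntl*, *Susd4*, *Moxd1* and *Asns*, and counting intervals would cover counting error only.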
